A study of Mus musculus with 15 samples.

Results

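The gene of p53 (Trp53), the genes of its main inhibitors (Mdm2 and Mdm4) and 7 genes that p53 activates (Cdkn1a, Ccng1, Sesn1, Sesn2, Phlda3, Gadd45a and Zmat3) were followed in the mouse kidney. They were picked by name, and the FPKM of their Ensembl transcripts were summed per gene through the GENCODE M21 annotation. FPKM is a level scaled to transcript length and sequencing depth, so it can be compared between genes. All 10 genes were among the 13940 genes with a transcript in every mouse's file, and all 10 were among the 12372 genes that had at least 1 FPKM in at least 5 mice and were tested. Of 53 annotated transcripts of the 10 genes, 25 were listed and 23 were listed in all files. Ccng1, Sesn2, Phlda3, Zmat3 and Mdm4 were each represented by 1 transcript.

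Wild-type male C57BL/6 mice, bought at 8 weeks of age, were treated for 28 days. Control mice (n = 5) received saline from an implanted osmotic pump, Ang II mice (n = 5) received angiotensin II at 500 ng/kg/min, a peptide hormone that constricts vessels and raises blood pressure, and Ang II + QDG mice (n = 5) received the same infusion together with the herbal preparation Qingda granule by gavage at 1.145 g/kg/day. The Control and Ang II mice were gavaged with water. Each library came from the renal tissue of 1 mouse, and the mouse numbers used here are only names within a group. The question put to RNA-seq was which transcripts Ang II infusion alters in the kidney and which of them differ when QDG is given.

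The p53 protein is a transcription factor that accumulates after DNA damage and other stress, and its targets halt the cell cycle, start apoptosis or adjust metabolism. MDM2, which marks p53 for degradation, is itself made from a p53 target, so the pathway restrains itself. In the kidney the pathway is best known from the response of tubular cells to injury. p53 is controlled to a large extent through the stability of its protein, which RNA levels do not show.

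None of the 10 genes passed an adjusted p of 0.05 in any of the 3 comparisons (limma's moderated test with Benjamini-Hochberg adjustment over all 12372 genes). The share of all genes that passed was 5.94% in Ang II against Control, 1.81% in Ang II + QDG against Ang II and 0.129% in Ang II + QDG against Control. Ang II mice 2 and 5 stood apart from the other Ang II mice in summed tubular cell markers, though not in every single marker. With both left out, a choice made after seeing the data, 82, 7 and 14 of all genes passed in limma in place of 735, 224 and 16, and still 0 of the 10. At an unadjusted p under 0.05 there was 1 of the 10 in Ang II against Control (Trp53, against 22.7% of all genes), 1 in Ang II + QDG against Ang II (Cdkn1a, against 16.4%) and 0 in Ang II + QDG against Control (14.4%). The 5 Ang II mice enter both of the first comparisons, so a level that is high in them by chance gives opposite signs in the pair. The median log2 fold change of the 10 genes was 0.10, −0.19 and −0.015 in the 3 comparisons, beside 0.083, −0.019 and 0.059 for all genes tested. Every fold change is on the log2(FPKM + 1) scale, which makes the changes of the lower genes smaller, and in whole tissue fewer cells of a type and less RNA per cell cannot be told apart.

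**Figure D1:**
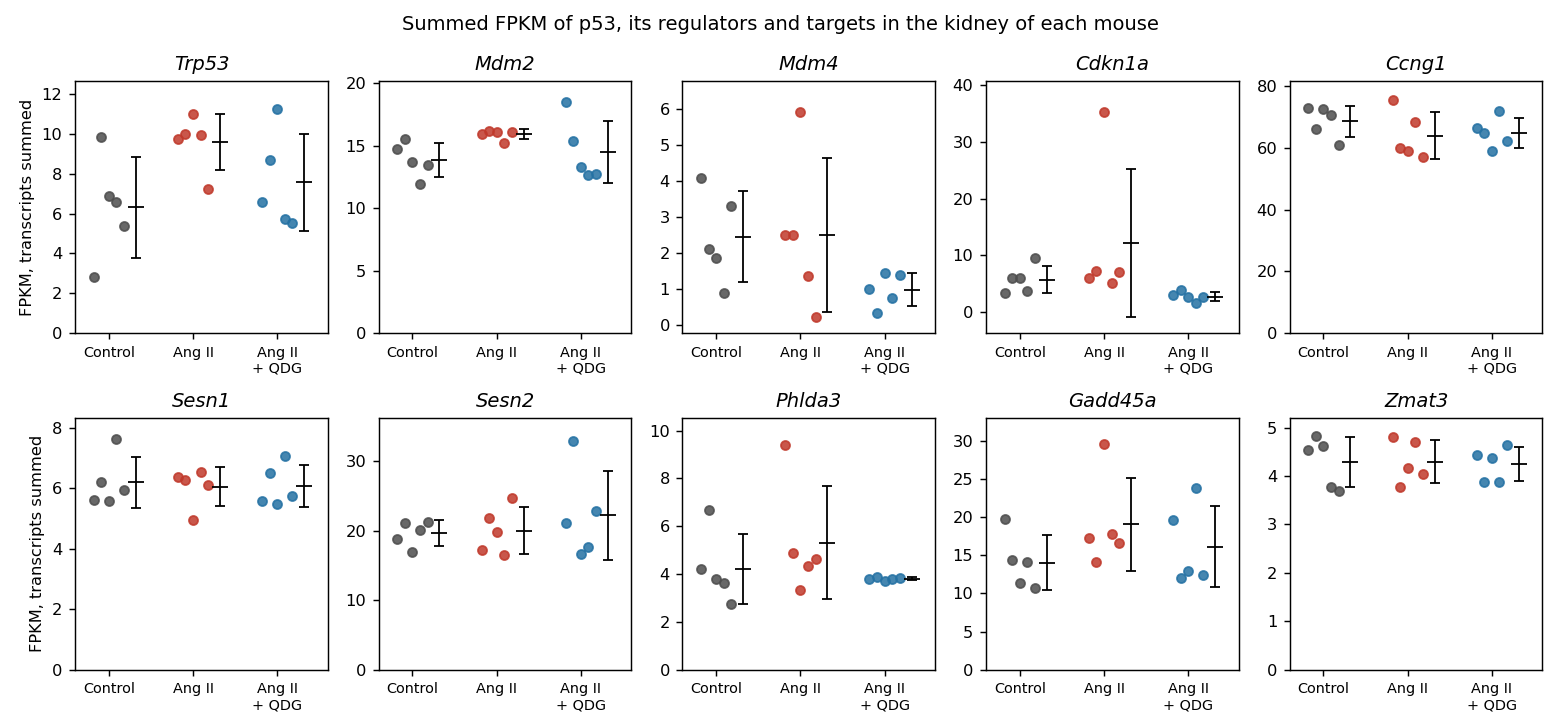
Summed FPKM of each gene (y axis, linear, from 0 or just below it) in each of the 15 mice by group. Points are mice, in the order of their number, and the black marks are the group mean ± SD (n = 5); the 35.3 FPKM of Cdkn1a in 1 Ang II mouse and the narrow Ang II + QDG values of Phlda3, 3.71 to 3.88 FPKM, stand out.

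**Figure D2:**
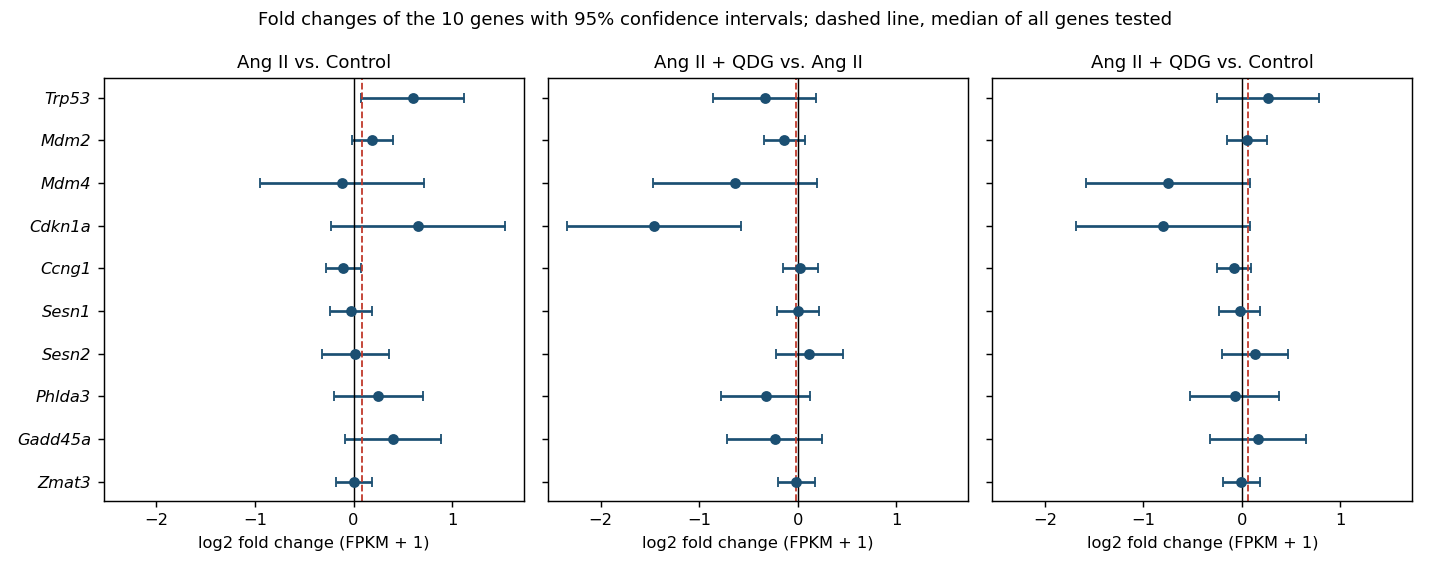
Log2 fold change of log2(FPKM + 1) for each gene (x axis) with its 95% confidence interval from limma, in the 3 comparisons. The dashed line is the median of all 12372 genes tested, and the interval that lies farthest from 0 is that of Cdkn1a in Ang II + QDG against Ang II, −2.34 to −0.58.

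Trp53 (ENSMUSG00000059552, chr11:69580359-69591873, plus strand, GRCm38 as in all positions here) had 2.82, 9.85, 6.89, 6.58 and 5.40 FPKM in Control mice 1 to 5. It had 9.75, 10.003, 10.98, 9.93 and 7.21 FPKM in the Ang II mice, and 6.59, 8.69, 11.3, 5.73 and 5.53 FPKM in the Ang II + QDG mice. Of the Ang II levels, 4 lay close together and the lowest Control level was far under them, but Control mouse 2 reached the Ang II range and the groups overlapped in every comparison. The group means were 6.31 ± 2.55, 9.58 ± 1.41 and 7.56 ± 2.42 FPKM (SD, n = 5 each).

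The log2 fold change of Trp53 in Ang II against Control was 0.60 (standard error 0.24, 95% confidence interval 0.08 to 1.12), with an unadjusted p of 0.0268 and an adjusted p of 0.158 from limma. Without Control mouse 1, the lowest, it was 0.39 (unadjusted p = 0.0738, adjusted p = 0.304 from limma), and without Control mouse 2, the highest of its group, 0.76 (adjusted p = 0.0656). For Ang II + QDG against Ang II it was −0.34 (interval −0.86 to 0.18, adjusted p = 0.534 from limma), and for Ang II + QDG against Control 0.26 (interval −0.26 to 0.79, adjusted p = 0.66), a value that ran from 0.050 to 0.43 with 1 mouse left out. Mitochondrial transcripts took a median of 19.4% of the FPKM in Control and 15.6% in Ang II, and with these left out of the scaling the first value was 0.58 (adjusted p = 0.191). Between 447 and 1721 reads per mouse stood behind the sum, so counting error was small beside the spread between mice.

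The sum of Trp53 joined transcripts with different ends of the coding sequence, which are shown because the listed level moved between them. The usual form and a known alternatively spliced form share every coding exon up to the last, and then use different acceptor sites in the last intron. The next lines give the last 30 bases of the exon before it in lower case and the coding bases of the last exon in capitals, first with the alternative acceptor (chr11:69591254-69591305) and then with the usual acceptor (chr11:69591350-69591428), read from the GRCm38 genome on the plus strand.
Trp53-202: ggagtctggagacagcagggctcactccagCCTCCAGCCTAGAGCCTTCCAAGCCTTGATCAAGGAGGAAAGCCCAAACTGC
Trp53-201: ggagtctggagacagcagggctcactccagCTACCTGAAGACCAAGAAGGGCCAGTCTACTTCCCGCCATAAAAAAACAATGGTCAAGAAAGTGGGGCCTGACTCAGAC

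Transcripts with the alternative end (Trp53-202 and Trp53-206) held most of the Trp53 FPKM in 13 of the 15 mice, and their share of all listed Trp53 transcripts ran from 31.6% to 99.2%. The exceptions were Control mouse 2, with 3.23 FPKM of the alternative and 5.73 FPKM of the usual end, and Ang II mouse 5, with 2.41 and 3.93 FPKM, Trp53-203 included. Levels with the alternative end were 4.54 ± 2.09, 7.76 ± 3.01 and 6.34 ± 1.45 FPKM in the 3 groups (SD, n = 5). Trp53-201, the form with the usual end that was listed for all mice, had 1.36 ± 2.46, 0.868 ± 1.49 and 0.627 ± 1.12 FPKM, with the SD above the mean in each group. With Trp53-203, which has the same end and was listed for the Ang II and Ang II + QDG mice alone, those 2 groups had 1.10 ± 1.59 and 1.16 ± 2.10 FPKM.

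Within the alternative end, the FPKM in most mice sat almost wholly on 1 of a pair of nearly identical transcripts, and Control mouse 1 was an exception with 0.844 and 0.79 FPKM. Trp53-202 led in 10 mice and Trp53-206, which shares 1821 of its 1867 bases with it, led in 3 (Control mouse 5 and Ang II + QDG mice 4 and 5). In those 3 mice Trp53-202 was listed at 0, while the sum of the pair stayed between 4.81 and 5.68 FPKM. Trp53-202 alone had a log2 fold change of 1.26 in Ang II against Control (standard error 0.76, adjusted p = 0.454 from limma over 28812 transcripts). Both this value and its standard error were larger than those of the sum, and 1 of the 5 Control levels in it was 0. Trp53-203 stayed out of the gene sum, and counting it where listed gave 0.63 (adjusted p = 0.158).

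**Figure D3:**
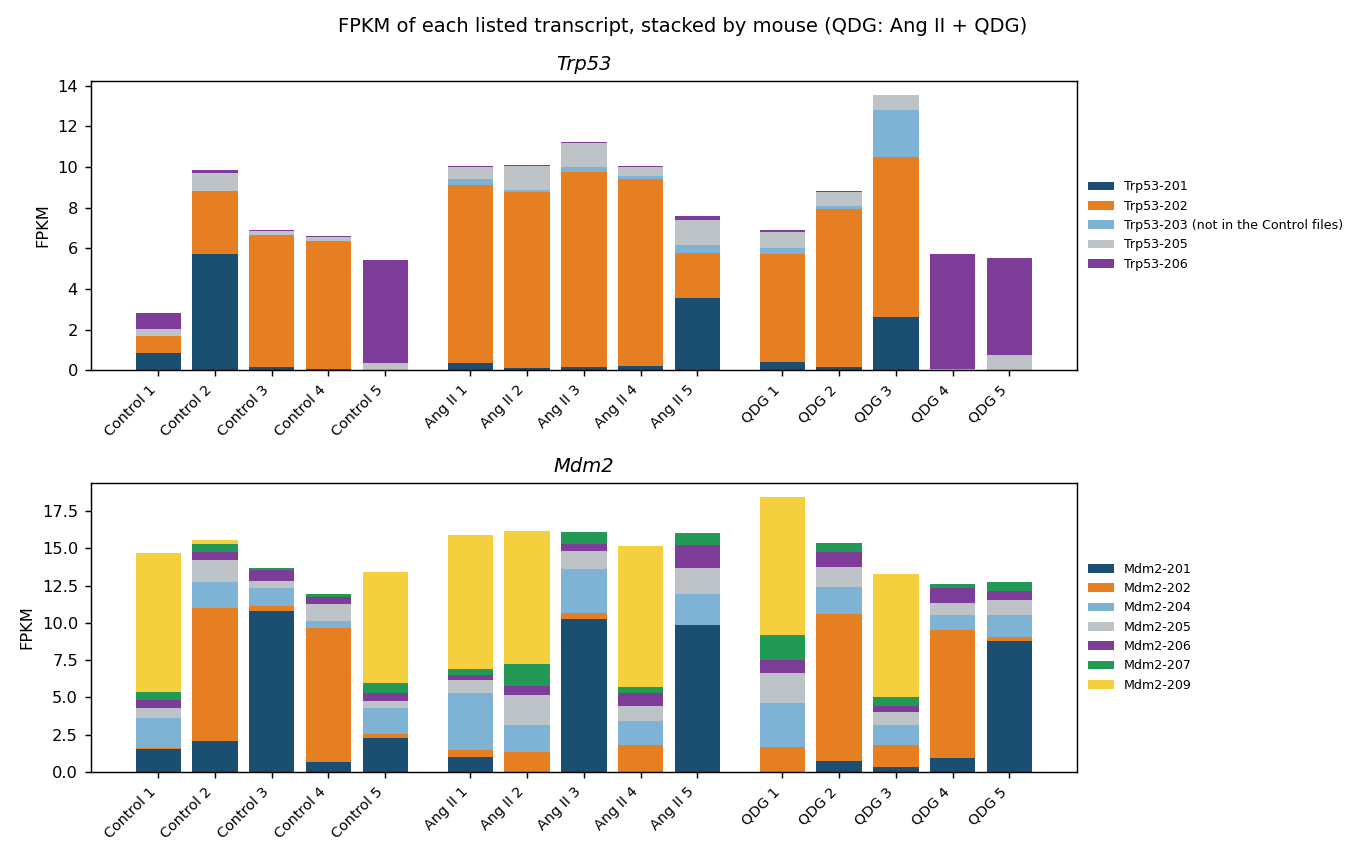
FPKM of each listed transcript of Trp53 (top) and Mdm2 (bottom), stacked in 1 bar per mouse, with mice 1 to 5 of Control, Ang II and Ang II + QDG from left to right. The colour that fills most of a bar changes from mouse to mouse within every group, while the heights of the Mdm2 bars stay between 11.9 and 18.5 FPKM.

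Mdm2 (ENSMUSG00000020184, chr10:117688875-117710758, minus strand), whose product is the ubiquitin ligase that targets p53, had 14.7, 15.6, 13.7, 11.9 and 13.4 FPKM in the Control mice. It had 15.9, 16.2, 16.1, 15.2 and 16.1 FPKM in the Ang II mice and 18.5, 15.4, 13.3, 12.6 and 12.7 FPKM in the Ang II + QDG mice. The Ang II levels were the tightest of the 3 groups, and Control mouse 2 lay above the lowest of them. The group means were 13.9 ± 1.37, 15.9 ± 0.410 and 14.5 ± 2.49 FPKM (SD, n = 5).

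The log2 fold change of Mdm2 was 0.19 in Ang II against Control (standard error 0.10, interval −0.02 to 0.40, adjusted p = 0.264 from limma). It was −0.14 in Ang II + QDG against Ang II (interval −0.34 to 0.07, adjusted p = 0.52) and 0.05 in Ang II + QDG against Control (adjusted p = 0.844). Summed over protein-coding transcripts alone, the first 2 values turned to −0.56 and 0.43. That sum leaves out 4 transcripts without a coding sequence and Mdm2-209, which the annotation marks for nonsense-mediated decay and which lacks a 97-base exon of Mdm2-201. This exon is printed in capitals with 30 bases of its neighbours on either side (chr10:117695953-117696049, minus strand), followed by the junction of Mdm2-209, in which the neighbours meet.
Mdm2-201: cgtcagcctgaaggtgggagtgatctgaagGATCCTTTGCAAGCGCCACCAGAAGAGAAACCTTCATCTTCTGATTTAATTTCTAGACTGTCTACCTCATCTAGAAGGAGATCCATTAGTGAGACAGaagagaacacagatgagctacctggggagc
Mdm2-209: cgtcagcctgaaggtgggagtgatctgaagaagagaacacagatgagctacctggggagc

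Most of the Mdm2 FPKM sat on Mdm2-209 in 7 mice, on Mdm2-201 in 4 and on Mdm2-202 in 4, and each led in at least 1 mouse of 2 or more groups. In mice where Mdm2-209 did not lead, it was listed at 0 in 7 of 8 and at 0.267 FPKM in the other. The sum of the 3 transcripts was nonetheless narrow, from 9.07 to 11.3 FPKM over all 15 mice, with means of 10.6 ± 0.731, 10.53 ± 0.532 and 10.04 ± 0.766 FPKM. The other 4 listed Mdm2 transcripts together had 3.25 ± 0.822, 5.37 ± 0.902 and 4.47 ± 1.85 FPKM (SD, n = 5), and the 2 of them that were tested, Mdm2-204 and Mdm2-205, had adjusted p-values of 0.335 and 0.369 in Ang II against Control (limma).

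Mdm4 (ENSMUSG00000054387, chr1:132959484-133030561, minus strand), whose product binds p53 and blocks its activity, was the lowest of the 10 genes at a mean of 1.97 FPKM. It was listed through 1 of its 14 annotated transcripts, Mdm4-210, so the rest of the gene was not measured here. The levels were 4.08, 2.10, 1.84, 0.874 and 3.31 FPKM in the Control mice, 2.48, 2.49, 5.91, 1.34 and 0.223 FPKM in the Ang II mice and 1.00, 0.327, 1.44, 0.728 and 1.39 FPKM in Ang II + QDG. The lowest and the highest of all 15 levels, which were 26.5-fold apart, both belonged to Ang II mice. On the log2 scale the difference was −0.12 in Ang II against Control (interval −0.95 to 0.71, adjusted p = 0.897), −0.63 in Ang II + QDG against Ang II (interval −1.47 to 0.20, adjusted p = 0.449) and −0.75 in Ang II + QDG against Control (interval −1.58 to 0.08, adjusted p = 0.394; all from limma).

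Cdkn1a (ENSMUSG00000023067, chr17:29090976-29100727, plus strand) encodes p21, an inhibitor of cyclin-dependent kinases and the classical arrest target of p53. Its transcript Cdkn1a-201 had 3.41, 6.00, 6.03, 3.77 and 9.52 FPKM in the Control mice. It had 6.08, 7.26, 35.3, 5.13 and 7.10 FPKM in the Ang II mice and 2.95, 3.86, 2.73, 1.59 and 2.62 FPKM in the Ang II + QDG mice. Every Ang II + QDG level lay below every Ang II level, while the Control levels overlapped both groups, and Ang II mouse 3 stood far above all others. The group means were 5.74 ± 2.44, 12.2 ± 12.96 and 2.75 ± 0.814 FPKM (SD, n = 5).

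Cdkn1a was the 1 gene of the 10 whose groups did not overlap in a comparison. Of all genes, 7.91% did not overlap in Ang II against Control, 5% in Ang II + QDG against Ang II (3.44% with the Ang II + QDG mice lower) and 3.64% in Ang II + QDG against Control. The log2 fold change there was −1.46 (standard error 0.41, interval −2.34 to −0.58), with an unadjusted p of 0.00322 and an adjusted p of 0.0836 from limma. It was 0.66 in Ang II against Control (interval −0.23 to 1.54, adjusted p = 0.375) and −0.80 in Ang II + QDG against Control (interval −1.69 to 0.08, adjusted p = 0.391). Without Ang II mouse 3 these values were −0.997 (adjusted p = 0.0615), 0.19 (adjusted p = 0.688) and −0.80 (adjusted p = 0.129), so that 1 mouse carried most of the difference from Control. Among single transcripts, a fold change of at least 2 with an unadjusted p under 0.05 was reached by 2.88%, 2.24% and 2.02% of the 28812 tested in the 3 comparisons, and by 1 of the 10 genes' transcripts, Cdkn1a-201 in Ang II + QDG against Ang II. Its adjusted p over transcripts was 0.177. No transcript of the 10 genes passed an adjusted p of 0.05, as 0.691%, 0.0972% and 0.0243% of all transcripts did.

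Ang II mouse 3 also had the highest Mdm4 level (5.91 FPKM), the highest Gadd45a level (29.6 FPKM) and the lowest Sesn1 level (4.96 FPKM) of the 15 mice. It was likewise the highest in Fkbp5, a gene that glucocorticoids induce, which was singled out after its values were seen. Fkbp5 had 31.9 to 41.0 FPKM in the Control mice, 47.3, 80.1, 210, 64.4 and 99.0 FPKM in Ang II mice 1 to 5 and 26.2 to 37.0 FPKM in Ang II + QDG. All Ang II levels of Fkbp5 were above all levels of both other groups. Its log2 fold change was 1.26 in Ang II against Control (adjusted p = 0.0227) and −1.42 in Ang II + QDG against Ang II (adjusted p = 0.0255), both from limma. Without Ang II mice 2 and 5 these were 1.24 (adjusted p = 0.107) and −1.41 (adjusted p = 0.133). Of the 5 glucocorticoid-induced genes listed, Fkbp5 alone passed; Zbtb16, with 6.50 FPKM in Ang II mouse 3 and 0.64 to 1.90 FPKM in the other Ang II mice, had 1.11 (adjusted p = 0.0959), and Per1, Tsc22d3 and Sgk1 had adjusted p-values of 0.332, 0.963 and 0.899 in Ang II against Control. Where Fkbp5 fell, in Ang II + QDG against Ang II, Zbtb16 had −0.77 (adjusted p = 0.328), while Per1, Tsc22d3 and Sgk1 had values of the opposite sign, 0.67, 0.23 and 0.54 (adjusted p = 0.549, 0.71 and 0.394; limma). The part of glucocorticoid signalling in the Cdkn1a levels was not tested.

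**Figure D4:**
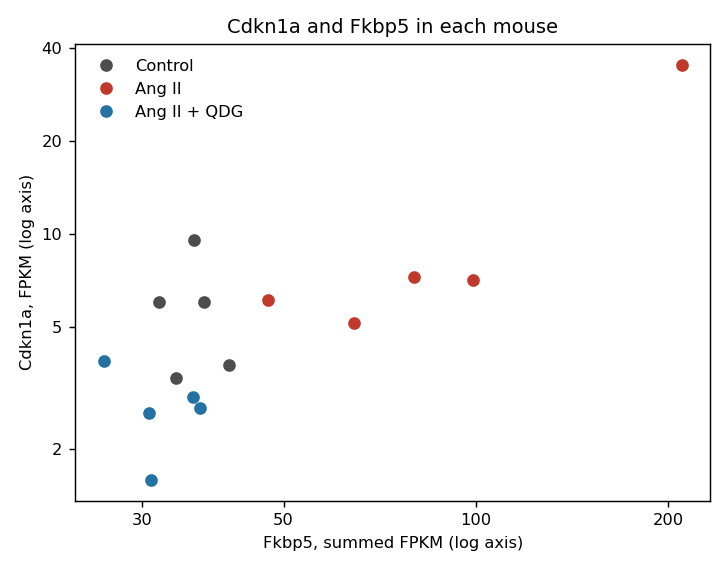
FPKM of Cdkn1a (y axis) against summed FPKM of Fkbp5 (x axis) in each of the 15 mice, both on log axes, coloured by group. Ang II mouse 3 is at the top right with 210 and 35.3 FPKM, the other Ang II mice are to the right of the Control mice, and the Ang II + QDG mice are at the lower left.

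The promoter windows of the 10 genes were searched for the p53 response decamer, the 10-base unit of which a full p53 binding element holds a pair, and which reads as itself on the other strand. RefSeq windows on GRCm38.p6, from 250 bases before to 50 bases after a transcription start, were found for 9 of the 10 genes (12 windows). The decamer occurred 7 times, in 6 of the 12 windows and in 6 genes, namely Trp53, Mdm2, Cdkn1a, Ccng1, Sesn1 and Gadd45a, while 8.36% of all 32851 windows held at least 1. Cdkn1a is the gene of the 10 with more than 1 decamer in 1 window, which are shown because Cdkn1a had the largest fold change of the 10 and the transcript that starts there was listed separately. These decamers lie 12 bases apart, and whether they form a full element was not tested. The 10 bases right after the nearer decamer, printed in lower case, miss the searched pattern at their first base and were not counted. The lines give the decamers in capitals with 10 bases on either side, on the plus strand at chr17:29090896-29090925 and chr17:29090918-29090947.
Cdkn1a, farther from the start: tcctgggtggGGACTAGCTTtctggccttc
Cdkn1a, nearer to the start: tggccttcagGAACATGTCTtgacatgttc

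The nearer decamer ends 42 bases before the start of Cdkn1a-202 and 2832 bases before that of Cdkn1a-201, which begins at a downstream first exon. Cdkn1a-202 was listed for the Control mice alone, at 0.202, 1.99, 0.463, 0 and 1.13 FPKM, and Cdkn1a-201 held at least 75.1% of the Cdkn1a FPKM in every mouse. The Control files had a transcript list of their own, so the absence of Cdkn1a-202 elsewhere is not a measured level of 0. With Cdkn1a-202 counted where listed, the log2 fold change in Ang II against Control was 0.52 (adjusted p = 0.495 from limma). For comparison, the decamer of Trp53 lies at chr11:69580274-69580303 and that of Mdm2, on the minus strand, at chr10:117710925-117710954, both given with 10 bases on either side.
Trp53: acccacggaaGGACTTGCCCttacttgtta
Mdm2: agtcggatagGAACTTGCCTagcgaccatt

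Gadd45a (ENSMUSG00000036390, chr6:67035096-67037457, minus strand), which is induced by DNA damage and acts in cell cycle arrest and repair, had 19.8, 14.3, 11.3, 14.1 and 10.7 FPKM in Control. It had 17.3, 14.1, 29.6, 17.7 and 16.6 FPKM in Ang II and 19.6, 11.96, 12.9, 23.8 and 12.4 FPKM in Ang II + QDG. Ang II mouse 3 was again the highest and the groups overlapped. Gadd45a had a log2 fold change of 0.40 in Ang II against Control (interval −0.08 to 0.89, adjusted p = 0.32), −0.24 in Ang II + QDG against Ang II (adjusted p = 0.657) and 0.17 in Ang II + QDG against Control (adjusted p = 0.785; limma). Without Ang II mouse 3 the first 2 values of Gadd45a were 0.24 (adjusted p = 0.555) and −0.072 (adjusted p = 0.909). With any 1 mouse left out the 3 values of Gadd45a ranged from 0.24 to 0.53, from −0.38 to −0.072 and from 0.019 to 0.29, the last pair without Ang II + QDG mouse 4 and Control mouse 1. Gadd45a-201 led in 14 mice, and the exception was Control mouse 3, in which the retained-intron transcript Gadd45a-204 held 51.3% of the sum.

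Ccng1 (ENSMUSG00000020326, chr11:40748552-40755311, minus strand), which encodes cyclin G1, was the most abundant of the 10 genes at a mean of 65.8 FPKM. Its group means were 68.6 ± 5.08, 64.0 ± 7.74 and 64.9 ± 4.88 FPKM (SD, n = 5), and all 15 levels lay between 57.1 and 75.5 FPKM. The highest and the lowest level both came from Ang II mice. On the log2 scale Ccng1 differed by −0.10 in Ang II against Control (interval −0.28 to 0.07), 0.02 in Ang II + QDG against Ang II (interval −0.15 to 0.20) and −0.08 in Ang II + QDG against Control (interval −0.26 to 0.10), with adjusted p-values of 0.497, 0.924 and 0.701 (limma). With 14235 to 21013 reads per mouse behind it, Ccng1 was the best measured of the 10 genes.

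Sesn1 (ENSMUSG00000038332, chr10:41809935-41908424, plus strand) and Sesn2 (ENSMUSG00000028893, chr4:132492032-132510501, minus strand) encode sestrins, stress-induced proteins that restrain mTORC1 and oxidative stress. Sesn1 had 6.20 ± 0.852, 6.05 ± 0.634 and 6.07 ± 0.684 FPKM in the 3 groups and Sesn2 had 19.6 ± 1.85, 19.99 ± 3.37 and 22.2 ± 6.44 FPKM (SD, n = 5). The level of Sesn2 was above that of Sesn1 in every mouse. For Sesn1 the log2 fold changes were −0.026 (interval −0.24 to 0.18), 0.0037 (interval −0.21 to 0.21) and −0.02 (interval −0.23 to 0.19) in the order used above, with adjusted p-values of 0.909, 0.991 and 0.942 from limma. For Sesn2 they were 0.015 (interval −0.32 to 0.36), 0.12 (interval −0.22 to 0.46) and 0.13 (interval −0.21 to 0.47), with adjusted p-values of 0.971, 0.774 and 0.745. The widest Sesn2 group was Ang II + QDG, where mouse 2 had 32.8 FPKM and the others 16.6 to 22.8 FPKM.

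Phlda3 (ENSMUSG00000041801, chr1:135766119-135769136, plus strand), which encodes an inhibitor of AKT, had 4.198, 6.67, 3.80, 3.62 and 2.74 FPKM in Control. It had 9.40, 4.86, 3.34, 4.34 and 4.61 FPKM in Ang II and 3.80, 3.88, 3.71, 3.81 and 3.83 FPKM in Ang II + QDG. The Ang II + QDG levels were nearly the same in all 5 mice, with a coefficient of variation of 1.62%, against 35.1% in Control and 44.5% in Ang II, where mouse 1 stood apart. Between 302 and 1070 reads per mouse stood behind Phlda3 (median 423). Counting error alone is wider than 1.62% at such counts, so the likeness of these 5 levels cannot be read as a property of the group. The log2 fold change of Phlda3 was 0.25 in Ang II against Control (interval −0.20 to 0.70, adjusted p = 0.521), −0.33 in Ang II + QDG against Ang II (interval −0.78 to 0.13, adjusted p = 0.48) and −0.07 in Ang II + QDG against Control (adjusted p = 0.909; limma). Without Ang II mouse 1 the first 2 values of Phlda3 were 0.055 (adjusted p = 0.887) and −0.13 (adjusted p = 0.747). The first was 0.40 without Control mouse 2 (adjusted p = 0.232) and 0.14 without Control mouse 5 (adjusted p = 0.758; limma). Ang II mouse 1 also had the highest sum of 2 adipocyte markers of the 15 mice (11.6 FPKM, against 0.013 to 0.619 FPKM in the other Ang II mice), and Control mouse 2, the highest Control mouse in Phlda3, had the highest of its group (5.62 FPKM, against 0 to 1.64 FPKM). In the Ang II + QDG mice the adipocyte sum ran from 0.369 to 4.50 FPKM, while Phlda3 stayed between 3.71 and 3.88 FPKM. The part of fat tissue in the Phlda3 levels was not tested.

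Zmat3 (ENSMUSG00000027663, chr3:32334792-32366014, minus strand), which encodes an RNA-binding zinc finger protein, varied little, with a highest level 1.31 times the lowest over the 15 mice. It had 4.29 ± 0.518, 4.30 ± 0.436 and 4.25 ± 0.345 FPKM in the 3 groups (SD, n = 5). Its log2 fold changes were 0.0047 (interval −0.18 to 0.19), −0.013 (interval −0.20 to 0.17) and −0.008 (interval −0.19 to 0.18), with adjusted p-values of 0.984, 0.963 and 0.98 from limma.

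Set in order of their mean FPKM over the 15 mice, the genes ran from Ccng1 (65.8) through Sesn2 (20.6), Gadd45a (16.4), Mdm2 (14.8), Trp53 (7.81), Cdkn1a (6.89), Sesn1 (6.11), Phlda3 (4.44) and Zmat3 (4.28) to Mdm4 (1.97). Ccng1 was above every other gene in all mice. Mdm2 was above Trp53 in every mouse, and every other gene from Sesn2 on overlapped the next in its range over mice. The ratio of the highest to the lowest mouse was 26.5 for Mdm4 and 22.2 for Cdkn1a, and between 1.31 and 4 for the other 8.

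The levels of the 10 genes were for the most part weakly related over the mice. Of their 45 pairs, 27 had a Pearson's r above 0 on the log2(FPKM + 1) scale, with a median of 0.0737, a description over 15 mice that share groups and scaling. Over all mice Mdm4 and Cdkn1a had the highest r (0.605, Spearman's rho 0.475), and it was 0.479 without the 2 mice farthest from the median of Mdm4. Phlda3 and Zmat3 had an r of 0.534 (rho 0.511), and 0.228 without the 2 mice farthest in Phlda3. Mdm4 and Sesn1 had an r of −0.551 (rho −0.471), and −0.285 without the 2 mice farthest in Mdm4. By rho the highest pair was Mdm2 and Cdkn1a (0.536), whose r went from 0.3615 to 0.590 without the 2 mice farthest in Mdm2. Leaving out the 2 mice farthest in Trp53 likewise took the r of Trp53 from 0.313 to 0.587 with Mdm2, from 0.384 to 0.544 with Cdkn1a and from 0.321 to 0.527 with Phlda3. With the other 6 genes the r of Trp53 after this was between −0.151 (Sesn1) and 0.3655 (Mdm4), and it was below 0 for all of Sesn1, Sesn2 and Ccng1.

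By rank over the 15 mice, the genes most like Trp53 among all tested were Clk3 and Wdr70 (Spearman's rho 0.857 each), Pgs1 and Bahcc1 (0.843 each) and Wasl (0.839). Among those most like Cdkn1a were Slc16a1 (0.893), Anp32e (0.889), Tmppe (0.857) and H6pd (0.836). Those most like Mdm2 were 2510039O18Rik (0.904), D17H6S53E (0.875), Sympk (0.861), and Cuedc1 and Pcyt2 (0.857 each). They are the highest of 12372 values and carry no test, and none of the other 9 genes was among them.

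The wider p53 pathway was followed through 60 other genes, of which 45 were tested. In Ang II against Control, 1 of the 45 rose, 1 fell and 43 did not pass, while 4.95% of all genes rose and 0.994% fell. At an unadjusted p under 0.05 there were 8 of the 45, against 22.7% of all genes. Tigar, whose product lowers glycolytic flux, had 1.96 ± 0.365 FPKM in Control and rose to 2.78 ± 0.284 FPKM under Ang II (log2 fold change 0.36, adjusted p = 0.0458 from limma), and each Ang II mouse was above each Control mouse. Gpx1, the abundant glutathione peroxidase, had 1914 ± 196 FPKM in Control and fell to 1610 ± 52.5 FPKM (log2 fold change −0.24, adjusted p = 0.0496 from limma). Both calls were close to the threshold: under 14 other settings of the analysis Tigar passed in 6 and Gpx1 in 8, and with 1 mouse left out they passed in 3 and 2 of 15 fits. Without Ang II mice 2 and 5 neither passed (adjusted p = 0.163 for Tigar and 0.171 for Gpx1).

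In Ang II + QDG against Ang II, and in Ang II + QDG against Control, 0 of the 45 genes passed in limma, while 6 and 2 had an unadjusted p under 0.05, against 16.4% and 14.4% of all genes. Nearest to the threshold in the first was Aen, an apoptosis-enhancing nuclease, with 8.28 ± 1.04 FPKM in the Control mice, 10.7 ± 1.94 FPKM in the Ang II mice and 7.43 ± 1.08 FPKM in the Ang II + QDG mice. The log2 fold change of Aen was −0.47 (adjusted p = 0.0664 from limma). Its adjusted p was 0.284 with protein-coding transcripts alone and 0.764 with the most abundant transcript alone (limma). Each Ang II + QDG mouse lay below each Ang II mouse in the summed level of Aen, as for Cdkn1a. The same held for Tigar, with 2.19 ± 0.209 FPKM in the Ang II + QDG mice (log2 fold change −0.25, adjusted p = 0.216 from limma). These were 2 of the 45 genes, while 3.44% of all genes were separate in that direction. Xpc, which recognises DNA damage for nucleotide excision repair, had 13.2 ± 0.991, 12.7 ± 0.86 and 14.8 ± 0.655 FPKM, with a log2 fold change of 0.20 for Ang II + QDG against Ang II (adjusted p = 0.122).

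By function, 0 of 15 regulators of p53, 0 of 6 cell cycle arrest targets, 0 of 12 apoptosis targets and 0 of 6 DNA repair targets passed in Ang II against Control, and Tigar and Gpx1 were both among the 6 metabolism and redox targets. The median log2 fold changes of these groups were 0.036, 0.31, 0.055, 0.062 and 0.045, beside 0.083 for all genes. In Ang II + QDG against Ang II the medians were 0.022, −0.15, −0.059, 0.065 and −0.079, beside −0.019 for all genes. In the 6 arrest targets the median thus lay farthest from that of all genes in both comparisons, which share the Ang II mice; with so few genes this is a description. Of these 6, Gadd45g alone had the sign opposite to the median in both, at −0.45 and 0.71 (adjusted p = 0.38 and 0.219 from limma).

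**Figure D5:**
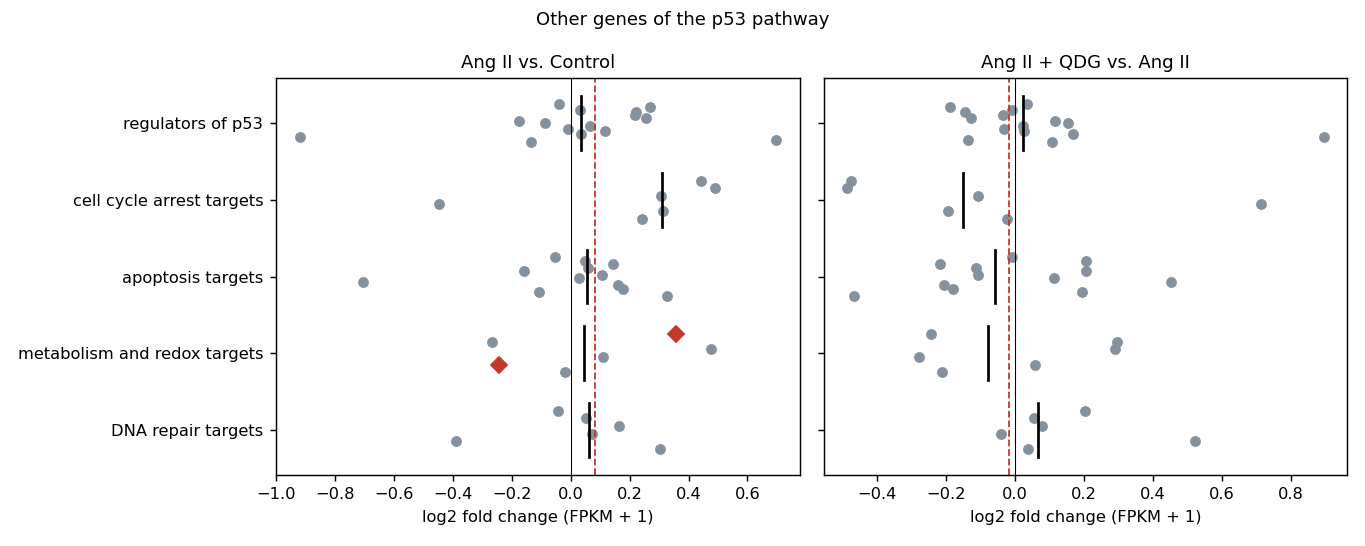
Log2 fold change of FPKM + 1 (x axis) for the 45 other p53 pathway genes tested, by function, in Ang II against Control (left) and Ang II + QDG against Ang II (right). Grey points are genes that did not pass and red diamonds those at an adjusted p under 0.05 (Tigar and Gpx1, left); the black bar is the median of a group and the dashed line the median of all genes.

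The values implied 75034600 to 81329500 reads or fragments per Control mouse, 70697600 to 79292000 per Ang II mouse and 68922800 to 76143500 per Ang II + QDG mouse, and 4 of the 5 Ang II + QDG mice were below every other mouse. Tubular, podocyte and endothelial markers of the kidney were present in all mice. Ang II mice 2 and 5 differed from the other 3 Ang II mice in summed tubular markers. Those of the proximal tubule were 4115 and 3794 FPKM against 2911 to 3056 FPKM, and those of the distal convoluted tubule 154 and 145 FPKM against 59.9 to 98.4 FPKM. Those of the thick ascending limb were 713 and 827 FPKM against 1125 to 1227 FPKM, and those of principal cells 139 and 122 FPKM against 209 to 334 FPKM. Not every marker followed its sum. Among the Ang II mice, Slc22a6 was highest in mouse 2 (411 FPKM) and lowest in mouse 5 (322 FPKM), where Slc5a12 was also lowest (13.8 FPKM). Pvalb and Scnn1g in mouse 2 lay within the range of the other 3. The remaining markers in these sums followed them. Ang II mouse 5 was also the lowest Ang II mouse in Trp53 and Mdm4. The summed FPKM of 3 podocyte markers was 75.1 to 83.4 in Control, 101 to 127 in Ang II and 97.96 to 125 in Ang II + QDG, that of 2 intercalated-cell markers was 39.4 to 45.1, 47.0 to 68.1 and 51.8 to 66.7 FPKM, and that of 4 leukocyte markers was 8.99 to 26.0 FPKM in 14 mice and 65.8 FPKM in Ang II + QDG mouse 4. The sum of 4 fibroblast and pericyte markers was 4.45 to 12.5 FPKM in Control, 11.6 to 24.4 FPKM in Ang II, with mouse 1 the highest, and 10.6 to 19.2 FPKM in Ang II + QDG. Of 4 tubular injury markers 2 were measured, and their sum was 333 and 311 FPKM in Control mice 4 and 5, above the 60.2 to 141 FPKM of the other 13 mice. Nearly all of it was Spp1, with 330 and 309 FPKM in these 2 mice. Lcn2 did not follow, with 2.41 and 1.61 FPKM there and its highest level, 10.1 FPKM, in Ang II + QDG mouse 4. The 4 markers of dividing cells that were looked up had no transcript among those shared by all 15 mice and were not analysed here, so no such level can be set beside Cdkn1a. Among single cell-type markers, Podxl of podocytes (log2 fold change 0.35, adjusted p = 0.0278), Slc26a4 of intercalated cells (0.49, adjusted p = 0.0312) and Pdgfrb of pericytes (1.13, adjusted p = 0.0468) rose in Ang II against Control in limma. The part of cell composition and depth in the 10 genes' values was not tested.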

How the data were processed

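The authors depleted ribosomal RNA from total RNA of the kidney of each of 15 mice, sequenced it and deposited 1 value per transcript and mouse, with mm10 and limma named in the submitters' processing notes. The study's methods also describe a poly(A) isolation step, which the labels do not mention. The aligner and counter are not given in the sources used here. The deposited values are taken as FPKM, which is an inference: multiplied by the GENCODE M21 length of the transcript, 98.4% to 98.7% of the values under 200 reads were within 0.05 of a whole number once divided by 1 constant for each mouse. For Cdkn1a-201 they were not, so its reads are approximate; the cause was not tested. The files listed 43733 transcripts, 31301 of them Ensembl transcripts, of which 31254 were in GENCODE M21; 40054 were in all files, and 11141 of those were assembled by the authors and not used. FPKM were summed per gene over transcripts in all files, because 1423 transcripts were listed in the Control files alone and 2256 in the others alone. Every Control file listed 41477 transcripts and every other file 42310. Each comparison with Control thus coincides with this difference in listing, whose part in the values was not tested.

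Genes that reached 1 FPKM in 5 or more mice were fitted as log2(FPKM + 1) in 1 limma model (3.58.1, R 4.3.3, trend, 12 residual degrees of freedom) of 15 mice and 3 groups, with Benjamini-Hochberg adjustment, and 28812 transcripts were fitted likewise. The scripts were tested on simulated data. Of the other pathway genes, the text names those with an adjusted p under 0.05 and the 2 with the smallest p per comparison; it names the 5 genes most like Trp53, Cdkn1a and Mdm2, of which 1 is not reported here. The genes, lists and tests were chosen with earlier results of these data known. No 2 mice of a group shared more than 0.0036% of their values. The labels do not pair mice across groups. The depth per mouse was implied from the FPKM, and the alternatives tried were other pseudocounts, filters, scalings, transcript sets and variance models, leaving out each mouse and, chosen after seeing the data, Ang II mice 2 and 5 together. Promoter windows are from RefSeq (GRCm38.p6), and other sequences and positions from GENCODE M21 on GRCm38.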

Additional observations from a re-analysis of the deposited data

Results flagged for a closer look

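Each gene and group was searched for 1 mouse set apart from the other 4 (gap over range above 0.71, Dixon's critical value for 5 samples). Of 30 groups, 5 held such a mouse, all of them in Ang II. The critical value flags about 1 in 20 groups by chance where groups are independent and values normally distributed. These groups share the same 15 mice and hold FPKM without a log scale, so the count cannot be set against that rate. Ang II mouse 3 was set apart in 3 genes, with the highest Cdkn1a (35.3 FPKM, next 7.26), the highest Gadd45a (29.6 FPKM, next 17.7) and the lowest Sesn1 (4.96 FPKM, next 6.12). Ang II mouse 1 had the highest Phlda3 (9.40 FPKM, next 4.86), and Ang II mouse 4 the lowest Mdm2 (15.2 FPKM, next 15.9), in a group whose range was narrow.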

How the results depend on the processing

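None of the 10 genes passed in any comparison under any of the alternatives run or with any mouse left out. Of their values under the other settings, 9, 4 and 4 of 139 reversed in Ang II against Control, Ang II + QDG against Ang II and Ang II + QDG against Control, and 11 of 150 in each with 1 mouse left out. The adjusted p of Cdkn1a in Ang II + QDG against Ang II ran from 0.0684 to 0.153 over the settings and from 0.0615 to 0.17 with 1 mouse left out; that of Trp53 in Ang II against Control ran from 0.14 to 0.404 and from 0.0656 to 0.304. Fkbp5 passed in Ang II against Control in 13 of 14 settings and 12 of 15 fits without 1 mouse, and in Ang II + QDG against Ang II in 13 of 14 and 9 of 15. The cause of the changes below was not tested.

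The genes called among all tested in Ang II against Control numbered 735 (612 higher, 123 lower), 408 with protein-coding transcripts, 353 with the most abundant transcript, 456 with 2 groups in the model and 338 to 797 with 1 mouse left out. Quantile normalization gave 497 (224 higher, 273 lower) and median scaling 495 (209 higher, 286 lower). In Ang II + QDG against Ang II there were 224 (65 higher, 159 lower), 58 with 2 groups and 53 to 250 with 1 mouse left out; quantile normalization gave 195 (99 higher, 96 lower) and median scaling 167 (68 higher, 99 lower). In Ang II + QDG against Control there were 16 (12 higher, 4 lower), 28 with the filter in all 15 mice, 80 with all listed transcripts, 6 with protein-coding transcripts, 6 with the most abundant transcript, 4 with 2 groups, 62 with array weights and 0 to 110 with 1 mouse left out; the 0 came without Control mouse 4, with 1493 genes at an unadjusted p under 0.05. Quantile normalization there gave 15 (8 higher, 7 lower) and median scaling 22 (10 higher, 12 lower). With Ang II mice 2 and 5 left out together, chosen after seeing the data, they were 82 (56 higher, 26 lower), 7 (0 higher, 7 lower) and 14; Fkbp5, Tigar and Gpx1 no longer passed, and Sesn2 (−0.13) and Mdm4 (0.24) in Ang II against Control and Ccng1 (−0.056) in Ang II + QDG against Ang II reversed. Single mice moved these counts by over 1.5 times. In Ang II against Control it was 338 and 362 without Control mice 1 and 3, and 403 and 349 without Ang II mice 2 and 5. In Ang II + QDG against Ang II it was 53 and 65 without Ang II mice 2 and 5, and 57, 81, 87 and 81 without Ang II + QDG mice 2, 3, 4 and 5. In Ang II + QDG against Control it was 7, 110, 0 and 30 without Control mice 1, 2, 4 and 5, 26 without Ang II mouse 3, and 5, 2 and 4 without Ang II + QDG mice 1, 2 and 3.

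Mdm2 reversed with protein-coding transcripts alone (−0.56, 0.43 and −0.13) and, in Ang II + QDG against Control, with quantile normalization (−0.0085), median scaling (−0.031) and the most abundant transcript (−0.045). Sesn1 reversed with the most abundant transcript (0.074 in Ang II against Control, −0.13 in Ang II + QDG against Ang II) and, in the latter, with array weights (−0.022). In Ang II against Control, Sesn2 reversed with quantile normalization (−0.072), median scaling (−0.084) and without the mitochondrial genome (−0.0024). Zmat3 did so with quantile normalization (−0.090), median scaling (−0.080), without the mitochondrial genome (−0.010) and with array weights (−0.0018), and in Ang II + QDG against Ang II without the mitochondrial genome (0.0021). Aen reversed with the most abundant transcript (−0.17 in Ang II against Control). With 1 mouse left out, the values that reversed ranged from −0.014 to 0.085 (Ccng1, Ang II + QDG against Ang II), −0.033 to 0.096 (Mdm2, Ang II + QDG against Control), −0.42 to 0.20 (Mdm4, Ang II against Control) and −0.18 to 0.077 (Phlda3, Ang II + QDG against Control). Over the 3 comparisons in order, Sesn1 ranged from −0.057 to 0.042, −0.056 to 0.033 and −0.071 to 0.045, Sesn2 from −0.061 to 0.079, −0.028 to 0.21 and −0.013 to 0.22, and Zmat3 from −0.037 to 0.041, −0.049 to 0.021 and −0.050 to 0.028. Mdm4 was not tested with the filter in all 15 mice. No paired analysis was possible because the labels give no replicate number, litter, batch or day that ties mice across groups, and the mouse numbers used here follow accession order.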
